A study of Homo sapiens with 6 samples.

Results

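The genes described here encode the histones, the proteins around which DNA is wound. They were found by the gene symbol of each array probe, which had to name a linker histone H1, a core histone of the H2A, H2B, H3 or H4 clusters, or one of 8 named variants (H2AJ, H2AX, H2AZ1, H2AZ2, H3-3A, H3-3B, MACROH2A1 and MACROH2A2). This gave 75 of the 18849 genes with a symbol on the array, measured by 88 of its 48799 probes. A further probe (1) that is annotated to several genes, with a histone gene among them, was left out. The data are 6 single-colour Illumina bead arrays of cells labelled SKOV3, an established human ovarian carcinoma line. The 3 arrays called OM3 (SKOV3-OM3 in full) are of cells labelled as metastatic, and the 3 called ip1 (SKOV3_ip1) are of cells labelled as parental, while the extraction protocol speaks of tissues. No treatment, clone or passage is given in the labels for either group, and the labels do not say that the arrays of a group came from separate cultures, so the spread behind each p-value is that between these samples and may be technical in part or whole. The single comparison set OM3 against ip1 and addresses how expression in the metastatic cells differs from that in the parental ones.

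The nucleosome holds a pair each of H2A, H2B, H3 and H4, and H1 binds the DNA that enters and leaves it. Most core histone genes and several H1 genes lie in clusters, are transcribed mainly in S phase, when DNA is copied, and give mRNAs that end in a stem-loop in place of a poly(A) tail. Most of the variants are made throughout the cell cycle from ordinary polyadenylated mRNAs and replace core histones at particular places, while H2AX also gives a stem-loop mRNA in S phase. The labelling kit named in the labels primes from poly(A) tails, so intensities of the clustered genes stand mainly for whatever polyadenylated transcripts they have.

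Arrays of the same group correlated at 0.983 to 0.986 over the 19002 probes tested, while an OM3 and an ip1 array correlated at 0.821 to 0.836. The arrays labelled OM3 go against the SKOV3 label in several markers, so the name OM3 stands below for the arrays with that label. The main probe of PAX8, a transcription factor of the Mullerian lineage, was below background on the 3 OM3 arrays and at least 42.2-fold lower there (adjusted p = 2.87e-08). CDKN2A, which SKOV3 is known to have lost, had signal above background on OM3 arrays alone, and its level was at least 11.2-fold higher there (adjusted p = 1.79e-06). Of 12 ovarian carcinoma and epithelial markers 9 fell in OM3 and 1 rose. The 1 that rose was EPCAM, the brightest of that list in OM3 (1.96-fold higher, limma adjusted p = 0.000517). All 7 fibroblast markers past the filter, of 10 listed, rose, where 30.1% of all genes rose and 24.9% fell. COL1A1, PDGFRB and FAP did not pass the filter. COL1A1 was above background on 1 OM3 array only, FAP on 1 ip1 array only and PDGFRB on none, so the list was not uniformly present in OM3. CDKN2A and the fibroblast markers COL1A2, COL3A1, DCN, LUM and THY1 passed the filter through the OM3 arrays alone, so they had to differ. The same holds for PAX8, SOX17, MSLN and KRT19, which passed it through the ip1 arrays alone. The summed intensity of the fibroblast list was 7971 to 9071 on OM3 arrays and 474 to 496 on ip1 arrays, and that of the epithelial list 9309 to 10973 on OM3 arrays and 44741 to 48510 on ip1 arrays. Mesothelial markers summed to 321 to 425 in OM3 and 3046 to 3278 in ip1, leukocyte markers to 767 to 953 in OM3 and 2058 to 2756 in ip1, endothelial markers to 268 to 317 in OM3 and 283 to 322 in ip1, and adipocyte markers to 494 to 538 in OM3 and 426 to 706 in ip1. CD68 was the only leukocyte marker called (4.01-fold lower in OM3, limma adjusted p = 4.08e-05), and the 3 others past the filter did not pass the test. MSLN and WT1 stand in both the epithelial and the mesothelial list. The leukocyte markers PTPRC and CD3E and the endothelial markers VWF and CDH5 were below background on all 6 arrays. These marker differences move with the same groups as every histone result that follows, and their part in those results was not tested.

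Of the 88 histone probes, 50 passed the filter of being above background on 3 arrays or more out of 6, and 35 of those were above it on all 6. They stand for 43 genes. The 38 probes left out were dim, with signals between 99.2 and 174 where the background peak of an array lay between 120 and 132. Histone genes did not move as a block. Of the 50 probes, 13 were higher and 8 lower in OM3 (26% and 16%), against 28.2% and 23.1% of all probes tested, so the share of histone probes called in either direction, 42%, was no larger than the 51.3% of the array. The count of lower probes was 5 without replicate 2 and also 5 without replicate 3 of ip1. The change reached 2-fold in 7 of the higher and 3 of the lower probes, against 11.5% and 12.4% of all probes. The groups did not overlap for 26 probes (52%), against 59.8% of all probes. In bulk RNA, fewer cells of a type and less RNA per cell cannot be told apart, and this holds for each value here.

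Counted by gene, with each gene standing for its brightest probe past the filter, 11 rose, 7 fell and 25 did not pass the test, where 30.1% of all genes rose and 24.9% fell (55% in either direction). The median log2 fold change of the 43 genes was 0.19, beside 0.08 for all probes tested. A probe that passed the filter only because it is bright in 1 group had to differ, so these counts describe the genes measured here and not the whole family. Values below are normalized log2 intensities unless called folds, with OM3 over ip1 as the direction of every fold change.

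**Figure D1:**
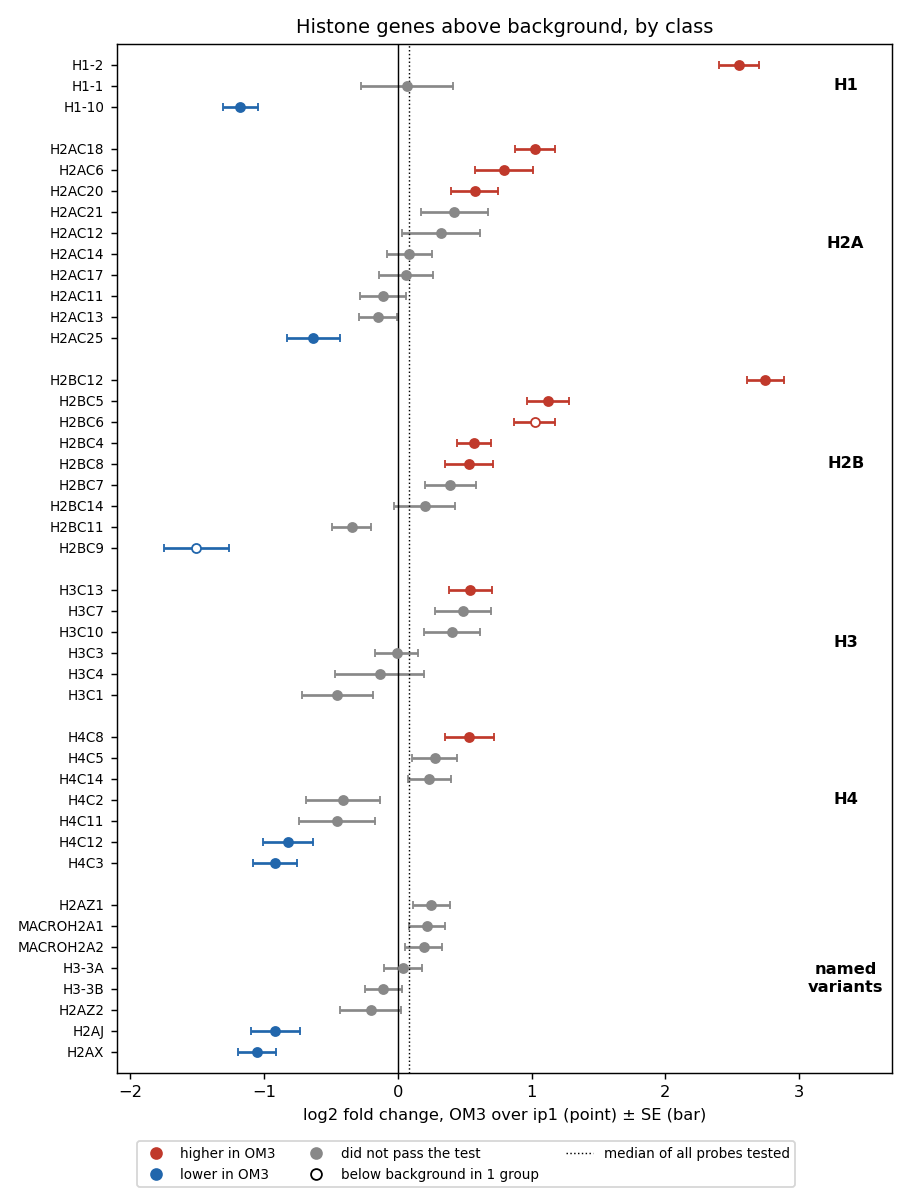
Log2 fold change of OM3 over ip1 (x axis, point with SE bar, 3 arrays a group) for the 43 histone genes past the filter, grouped by class down the page. H2BC12 (2.75) and H1-2 (2.55) stand far to the right, and H1-10, H2AX and H4C3 are among those to the left. Open points (H2BC6 and H2BC9) were below background on all arrays of 1 group, so their fitted values rest in part on background signal.

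Of 9 H1 genes 3 passed the filter, of which 1 rose, 1 fell and 1 did not pass the test. Among all genes 30.1% rose and 24.9% fell, and the difference was not tested. H1-2 (once HIST1H1C), a clustered H1 subtype that compacts the fibre between nucleosomes, had 10.81, 11.02 and 10.90 on OM3 arrays, against 8.59, 8.24 and 8.24 on ip1 arrays. Every OM3 array lay above every ip1 array, and the gene was 5.87-fold higher in OM3 (log2 fold change 2.55 ± 0.15, SE, n = 3 + 3, adjusted p = 2.71e-06). H1-10 (H1x), a linker histone that lies outside the clusters, had 9.40, 9.40 and 9.58 on OM3 arrays and 10.57, 10.69 and 10.66 on ip1 arrays. It was low on all OM3 arrays and 2.27-fold lower in OM3 (-1.18 ± 0.13, adjusted p = 0.000119). The other gene past the filter, H1-1, gave 0.07 ± 0.34 (adjusted p = 0.886) with overlapping groups. The remaining 6 H1 genes, among them H1-3, H1-4 and H1-5, did not pass the filter.

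Of 18 H2B genes 9 passed the filter, of which 5 rose, 1 fell and 3 did not pass the test, and their median log2 fold change was 0.53. Among all genes 30.1% rose and 24.9% fell, and the difference of H2B from these or from other classes was not tested. H2BC12 (once HIST1H2BK) had 13.49, 13.55 and 13.28 on OM3 arrays and 10.73, 10.74 and 10.61 on ip1 arrays. With no overlap between the groups it was 6.73-fold higher in OM3 (2.75 ± 0.14, adjusted p = 9.24e-07). Its second probe gave 10.36, 10.24 and 10.14 in OM3 against 7.67, 7.98 and 7.52 in ip1, a log2 fold change of 2.52 ± 0.16 (adjusted p = 3.85e-06), so both probes of the gene moved alike.

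H2BC5 (once HIST1H2BD) had 8.99, 8.97 and 8.92 on OM3 arrays and 7.73, 8.12 and 7.65 on ip1 arrays, with all OM3 arrays above (1.12 ± 0.16, adjusted p = 0.000472). A second probe of H2BC5 differed less, with 8.16, 7.99 and 8.0 in OM3 and 7.85, 7.96 and 7.79 in ip1, and did not pass (0.18 ± 0.13, adjusted p = 0.287). The probes of this gene therefore disagree in size, and one more was too dim to test. H2BC6 had 6.66, 6.61 and 6.61 in OM3 and 5.68, 5.36 and 5.78 in ip1, below background on the 3 ip1 arrays, so its level in OM3 was at least 1.60-fold higher. It entered through the OM3 arrays alone, and with no filter on dim probes its adjusted p was 0.00729. Its fitted log2 fold change was 1.02, against 0.41 in the authors' value table. H2BC4 had 6.68, 6.63 and 6.70 in OM3 and 6.08, 6.06 and 6.15 in ip1 (0.57 ± 0.12, adjusted p = 0.00496). Its arrays were tight within each group and did not overlap between groups. The ip1 values of H2BC4 lay close to the lowest signal above background on those arrays (5.95 to 5.97), and its log2 fold change ran from 0.25 to 0.84 over other settings. H2BC8 had 6.96, 6.79 and 6.74 in OM3 and 6.62, 6.00 and 6.27 in ip1 (0.53 ± 0.18, adjusted p = 0.0364), a call that was lost in 11 of 16 other settings, among them the omission of replicate 1, 2 or 3 of OM3 (adjusted p = 0.101, 0.0626 and 0.0516) and of replicate 2 or 3 of ip1 (0.105 and 0.0829).

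The H2B gene that fell was H2BC9. It had 5.00, 5.79 and 5.78 on OM3 arrays, all below background, and 6.97, 6.80 and 7.33 on ip1 arrays, so it was at least 2.05-fold lower in OM3. It entered through the ip1 arrays alone, and with no filter on dim probes its adjusted p was 0.00535. Its fitted log2 fold change was -1.51, against -0.64 in the authors' value table. H2BC11 had 9.18, 9.15 and 9.26 in OM3 and 9.51, 9.75 and 9.37 in ip1, and its difference of -0.34 ± 0.15 did not pass (adjusted p = 0.0783), though it did in 5 of 16 other settings (lowest adjusted p = 0.0201). H2BC7 and H2BC14 did not pass either, with overlapping groups.

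Promoters are shown for 4 H2B genes, 3 that rose and the 1 that fell, and for H1-2, chosen after their values were seen, to set the known control elements of histone genes beside these values. The windows come from RefSeq (GRCh38.p14), where 70 of the 75 histone genes had one, and each holds the 250 bases before the annotated start, on the strand of the gene. Capitals mark motifs found on either strand: the octamer ATTTGCAT, known as the binding site of Oct-1 (POU2F1) in H2B promoters, the CCAAT box, the TATA box with the letters TATAAA, and in H1-2 the H1 box, spelled AAACACA. In the H2BC12 window, TATAAA on both strands overlaps at one place. H2BC12 has 2 annotated windows, of which the first is shown. The windows lie at chr6:27146859-27147108 (minus strand) for H2BC12, chr6:26183511-26183760 (plus) for H2BC6, chr6:26123927-26124176 (minus) for H2BC4, chr6:26251364-26251613 (plus) for H2BC9 and chr6:26056471-26056720 (minus) for H1-2.
H2BC12: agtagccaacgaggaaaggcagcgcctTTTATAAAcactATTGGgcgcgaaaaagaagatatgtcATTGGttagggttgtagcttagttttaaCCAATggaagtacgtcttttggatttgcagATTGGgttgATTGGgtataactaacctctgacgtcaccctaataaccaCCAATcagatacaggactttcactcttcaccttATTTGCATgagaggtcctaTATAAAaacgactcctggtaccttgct
H2BC6: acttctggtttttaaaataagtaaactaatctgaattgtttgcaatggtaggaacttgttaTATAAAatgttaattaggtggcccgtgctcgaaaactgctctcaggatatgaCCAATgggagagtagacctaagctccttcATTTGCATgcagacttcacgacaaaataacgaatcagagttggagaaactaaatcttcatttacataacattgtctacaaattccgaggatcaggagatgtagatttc
H2BC4: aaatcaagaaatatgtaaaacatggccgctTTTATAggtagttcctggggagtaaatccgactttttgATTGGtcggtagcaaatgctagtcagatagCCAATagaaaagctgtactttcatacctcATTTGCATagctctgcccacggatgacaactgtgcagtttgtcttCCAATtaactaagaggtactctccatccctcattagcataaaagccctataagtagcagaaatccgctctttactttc
H2BC9: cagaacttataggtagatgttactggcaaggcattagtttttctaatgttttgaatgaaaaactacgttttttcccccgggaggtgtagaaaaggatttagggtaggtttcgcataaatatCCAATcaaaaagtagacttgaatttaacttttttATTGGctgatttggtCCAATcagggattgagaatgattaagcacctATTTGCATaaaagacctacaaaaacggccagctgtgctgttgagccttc
H1-2: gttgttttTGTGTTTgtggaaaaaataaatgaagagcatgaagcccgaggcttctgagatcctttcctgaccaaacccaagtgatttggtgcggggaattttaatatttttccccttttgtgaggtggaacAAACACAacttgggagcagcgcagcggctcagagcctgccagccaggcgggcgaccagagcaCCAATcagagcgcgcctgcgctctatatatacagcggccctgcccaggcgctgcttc

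Each of the 4 H2B windows holds the octamer, 46 bases before the start in H2BC12, 49 in H2BC9, 108 in H2BC6 and 123 in H2BC4. H2BC9, which fell, thus carries the same letters as H2BC12, which rose. Over windows that also include 50 bases after the start, 14 of 18 H2B genes (77.8%) and 10 of 14 H2A genes (71.4%) had the octamer, against 2.19% of the 27305 genes in the table. None of 12 H4 genes and none of 9 H1 genes had it, and 7 of 9 H1 genes (77.8%) had the H1 box, against 6.94% of all genes. CCAAT occurred in all H2A, H2B and H3 windows and in 39.7% of all genes. Among H2B genes past the filter, the octamer was present in 4 of 5 that rose, in the 1 that fell and in all 3 that did not pass the test. TATAAA, counted at any place in the window and on either strand, was present in the 5 H2B genes that rose, absent from H2BC9 and present in 2 of the 3 others. The TATAAA nearest the start lay 27 bases before it in H2BC12, 189 in H2BC6 and 220, on the opposite strand, in H2BC4. Among H2A and H2B genes past the filter that had a window, TATAAA was present in 8 of 8 that rose and 0 of 2 that fell. It was present in 7 of 8 that did not pass the test. With so few genes that fell, these counts cannot tell whether promoters of genes that rose and fell differ, and the difference was not tested. The H1 box was searched after the values were seen.

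**Figure D2:**
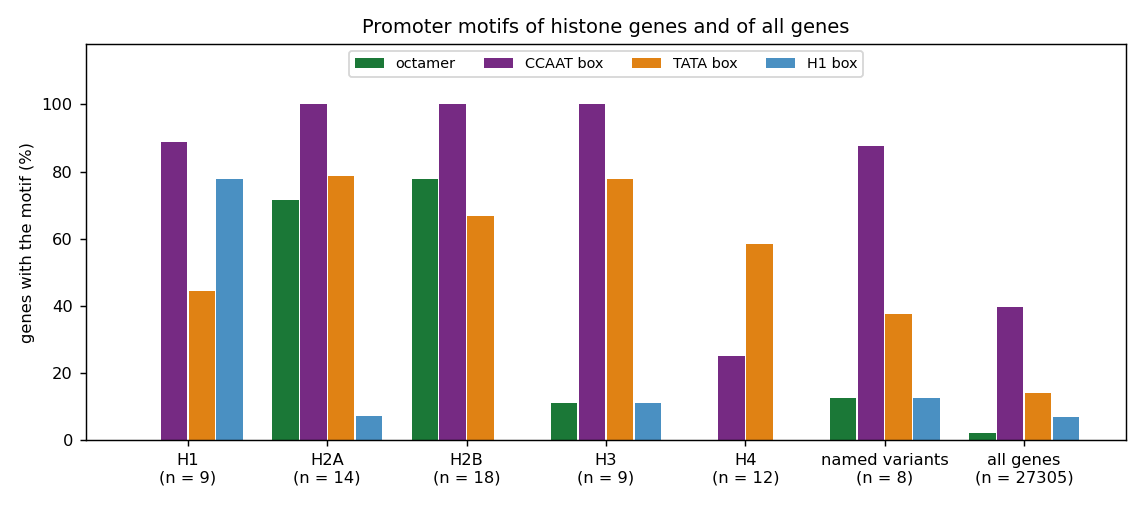
Percentage of genes (y axis) whose RefSeq promoter window holds each of 4 motifs, for 6 histone classes and, at the right, all genes in the table. The octamer bars reach 71.4% and 77.8% for H2A and H2B and 2.19% for all genes, and the H1 box bar reaches 77.8% for H1.

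Of 15 H2A genes 10 passed the filter, of which 3 rose, 1 fell and 6 did not pass the test. Over all genes, 30.1% rose and 24.9% fell, and the difference was not tested. H2AC18 (once HIST2H2AA3) had 9.30, 9.36 and 9.25 on OM3 arrays and 8.22, 8.5 and 8.10 on ip1 arrays, all OM3 arrays above (1.03 ± 0.15, adjusted p = 0.000537). Its second probe gave 9.08, 8.72 and 8.82 in OM3 and 6.80, 7.99 and 7.78 in ip1 (1.35 ± 0.29, adjusted p = 0.00475), with the first ip1 array lowest. H2AC18 has a near-identical copy beside it, so the probes are uncertain as to which copy they report.

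H2AC6 had 7.96, 7.82 and 7.62 in OM3 and 7.28, 7.22 and 6.53 in ip1 (0.79 ± 0.22, adjusted p = 0.0146). H2AC20 had 9.38, 9.48 and 9.55 in OM3 and 8.70, 9.24 and 8.74 in ip1 (0.58 ± 0.17, adjusted p = 0.0231). Both lay above ip1 on every OM3 array, and the H2AC20 call was lost without replicate 2 or 3 of OM3 (adjusted p = 0.0519 and 0.0618) and without replicate 1 or 3 of ip1 (0.0633 and 0.0711). H2AC25 (once HIST3H2A), an H2A gene of a separate small cluster on chromosome 1, was the one that fell, with 8.30, 8.20 and 8.14 in OM3 and 8.42, 9.16 and 8.96 in ip1 (-0.63 ± 0.20, adjusted p = 0.0268). Its call was lost without replicate 2 or 3 of OM3 (adjusted p = 0.0599 and 0.0655) and without replicate 2 or 3 of ip1 (0.08 and 0.0741). The 6 others ranged from -0.15 for H2AC13 to 0.42 for H2AC21, and their groups overlapped.

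Most H3 and H4 genes past the filter were not called, where 55% of all genes were called (30.1% higher and 24.9% lower). The difference of these few genes from that share was not tested. Of 11 H3 genes 6 passed the filter and 1 rose, H3C13, with 7.10, 7.32 and 7.23 in OM3 and 6.45, 6.91 and 6.65 in ip1 (0.54 ± 0.16, adjusted p = 0.0198). The H3C13 call was lost without replicate 2 of OM3 (adjusted p = 0.0565) and without replicate 1 or 3 of ip1 (0.0505 and 0.0504), and the gene has near-identical copies nearby. Another H3C13 probe was below background on all 6 arrays. The other 5 H3 genes lay between -0.45 for H3C1 and 0.48 for H3C7. Of 14 H4 genes, which all encode the same protein or nearly so, 7 passed the filter, 1 rose and 2 fell.

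H4C3 (once HIST1H4C) had 14.27, 14.19 and 13.80 on OM3 arrays and 14.86, 15.09 and 15.07 on ip1 arrays. All OM3 arrays were below all ip1 arrays, a 1.89-fold lower level in OM3 (-0.92 ± 0.17, adjusted p = 0.00178). H4C12 had 7.77, 8.07 and 7.84 in OM3 and 8.36, 8.93 and 8.85 in ip1, also without overlap (-0.82 ± 0.18, adjusted p = 0.00568). H4C8 moved the other way, with 6.29, 6.68 and 6.50 in OM3 and 6.03, 5.63 and 6.20 in ip1 (0.54 ± 0.19, adjusted p = 0.0403). Its call was lost in 9 of the 15 settings that gave it a value, among them the omission of replicate 2 or 3 of OM3 (adjusted p = 0.11 and 0.0787) and of replicate 1 or 2 of ip1 (0.0591 and 0.116), and 1 ip1 array was at background. Another H4C8 probe was below background on all 6 arrays.

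**Figure D3:**
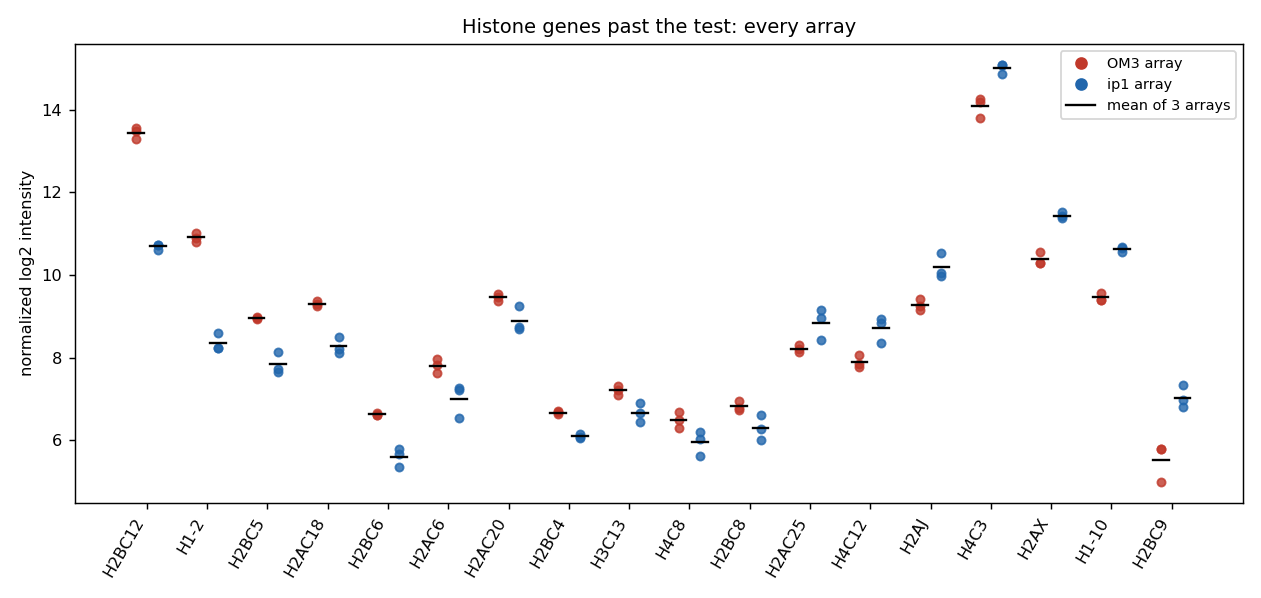
Normalized log2 intensity (y axis) of each array for the 18 histone genes past the test, ordered from the highest to the lowest fold change, with OM3 arrays left of ip1 arrays and a bar at the mean of 3. The 3 OM3 points lie entirely on one side of the 3 ip1 points for every gene shown, and the gap is widest for H2BC12 and H1-2.

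Of the 8 named variants, 2 were called, both lower in OM3, where 24.9% of all genes fell and 30.1% rose. H2AX, the H2A variant that is phosphorylated around DNA breaks, had 10.30, 10.29 and 10.56 on OM3 arrays and 11.37, 11.52 and 11.42 on ip1 arrays. Its 2.08-fold lower level in OM3 stood clear of the spread (-1.05 ± 0.14, adjusted p = 0.000335). H2AJ, an H2A variant known to build up in senescent human fibroblasts, had 9.42, 9.15 and 9.24 in OM3 and 9.98, 10.53 and 10.04 in ip1 (-0.92 ± 0.18, adjusted p = 0.00293). All OM3 arrays lay below all ip1 arrays for both genes.

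H3-3A and H3-3B encode the same protein, H3.3, which is placed into active genes and telomeres. H3-3A had 14.03, 14 and 14.26 in OM3 and 14.19, 14.07 and 13.92 in ip1 (0.04 ± 0.15, adjusted p = 0.847), and its other probes gave -0.02 ± 0.13 and 0.02 ± 0.16. H3-3B had 10.02, 10.04 and 10.07 in OM3 and 10.30, 9.97 and 10.18 in ip1 (-0.11 ± 0.14, adjusted p = 0.553). The groups overlapped for all 4 probes; the standard errors limit what size of difference could be seen.

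H2AZ1 and H2AZ2 encode forms of H2A.Z, which marks the first nucleosomes of genes. H2AZ1 had 14.71, 14.71 and 14.86 in OM3 and 14.35, 14.61 and 14.57 in ip1, with no overlap but without passing (0.25 ± 0.14, adjusted p = 0.171). H2AZ2 had 7.02, 6.83 and 7.67 in OM3 and 7.57, 7.18 and 7.38 in ip1 (-0.20 ± 0.23, adjusted p = 0.49). Neither H2A.Z gene was called here, and H2AZ1 passed in 1 of 16 other settings, the trended prior (adjusted p = 0.0338).

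The macroH2A variants carry a large extra domain and are known from silent chromatin, including the inactive X chromosome. The brightest MACROH2A1 probe had 13.93, 13.93 and 14.12 in OM3 and 13.83, 13.77 and 13.72 in ip1 (0.22 ± 0.13, adjusted p = 0.201). A dim probe of the same transcript did not pass the filter. Of 2 probes annotated to another transcript of the gene, one gave -0.14 ± 0.13 (adjusted p = 0.413) and the other was lower in OM3, with 9.13, 9.29 and 8.95 against 9.63, 9.50 and 9.45 in ip1 (-0.40 ± 0.14, adjusted p = 0.0467). The 3 probes past the filter thus point in different directions, and no test compared them. MACROH2A2 had 11.43, 11.52 and 11.51 in OM3 and 11.38, 11.38 and 11.11 in ip1 (0.19 ± 0.14, adjusted p = 0.278).

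Grouping by position was done after the values were seen and uses the RefSeq order of the genes, with a gap of over 1 Mb starting another group. In the large cluster on chromosome 6, 28 of 53 genes passed the filter, of which 8 rose and 3 fell, with a median log2 fold change of 0.14. H1-2, which rose, and H4C3, which fell, are next to each other in the order of members there. In the smaller group of 8 genes on chromosome 1, all 5 genes past the filter had values above 0 (0.24 to 1.03, median 0.54), of which H2AC18, H2AC20 and H3C13 passed the test. Of the 10 genes past the filter that lie alone or in pairs elsewhere, the named variants and H1-10 among them, 4 fell and none rose by limma's test, and none of these 10 rose at an unadjusted p under 0.05, where 24.9% of all genes fell and 30.1% rose. H2A and H2B genes often share one promoter region from which they are transcribed in opposite directions, and 11 such pairs were found from overlapping windows. Both genes passed the filter in 3 pairs: H2AC6 and H2BC4 both rose, while neither gene of the pairs H2AC11 with H2BC11 and H2AC14 with H2BC14 was called.

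**Figure D4:**
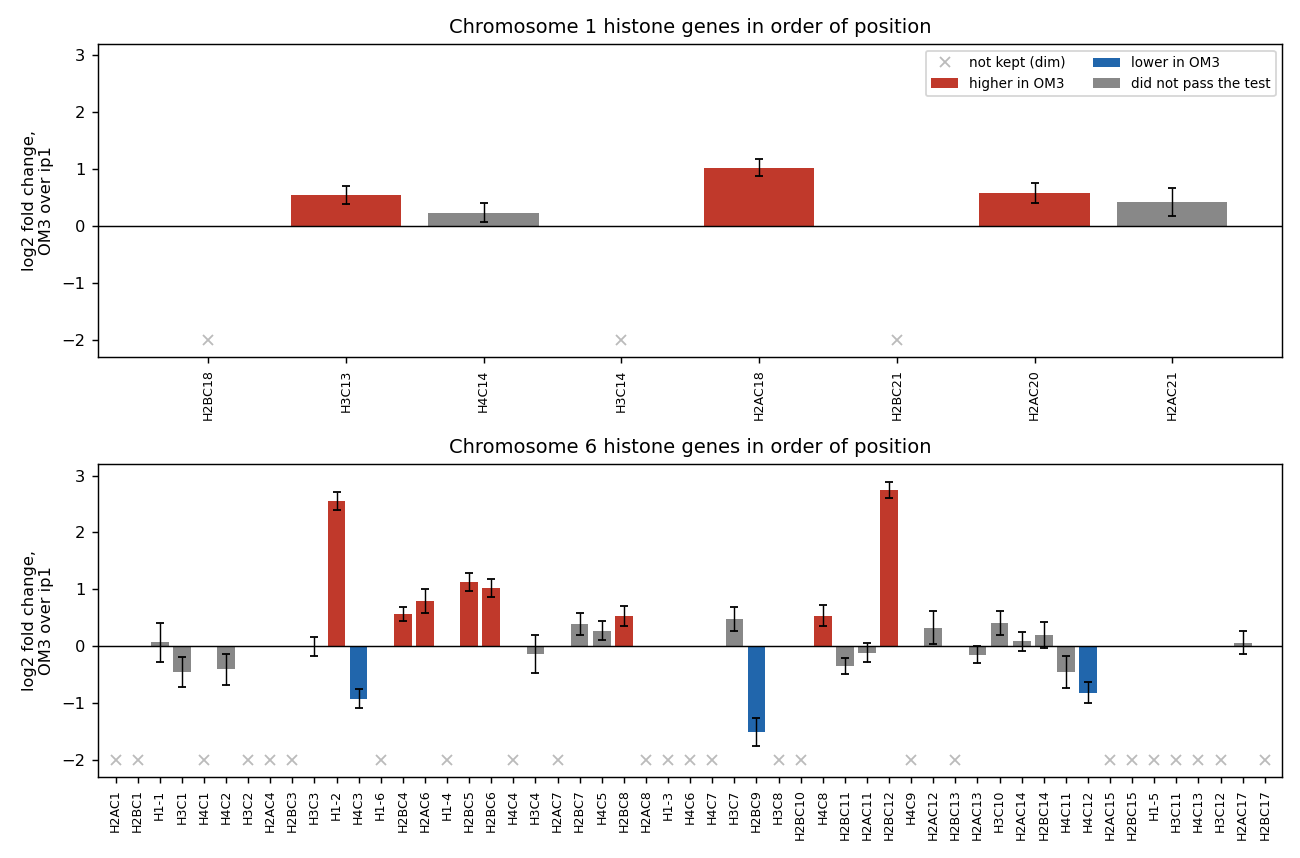
Log2 fold change of OM3 over ip1 (y axis, bar with SE) for histone genes in order of position in the groups on chromosome 1 (top) and chromosome 6 (bottom), with crosses for genes that were too dim to test. All 5 bars on chromosome 1 are above 0, and on chromosome 6 the tall bars of H1-2 and H2BC12 stand among genes with small or negative values.

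Of 20 listed genes of histone transcription and mRNA 3′ end formation 17 passed the filter, of which 6 rose, none fell by limma's test and 11 did not pass, with a median log2 fold change of 0.28. Among all genes 30.1% rose and 24.9% fell, to be set beside this list and those that follow, none of which was tested against other genes. At an unadjusted p under 0.05, 7 were higher and 1 lower. ERI1, an exonuclease that trims and degrades histone mRNAs, had means of 9.72 ± 0.17 in OM3 and 7.85 ± 0.43 in ip1 (SD, n = 3 each), a log2 fold change of 1.87 ± 0.22 (SE, adjusted p = 0.00017). NFYC, a subunit of the factor that binds CCAAT, rose by 1.19 ± 0.15 (adjusted p = 0.000229). CPSF3, the nuclease that cuts histone pre-mRNA, rose by 0.95 ± 0.18 (adjusted p = 0.00268). SLBP, which binds the histone stem-loop, was also called (0.57 ± 0.18, adjusted p = 0.0248).

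Of 28 listed S phase genes, SLBP included, 27 passed the filter, of which 9 rose and 3 fell, with a median of 0.29. E2F2, a transcription factor of the G1 to S transition, rose by 1.94 ± 0.14 (adjusted p = 9.98e-06), and RRM2, a subunit of ribonucleotide reductase, by 1.23 ± 0.14 (adjusted p = 0.000145). TK1, thymidine kinase, had a log2 fold change of -1.26 ± 0.14 (adjusted p = 0.000145). These S phase genes and the clustered histone genes both went in both directions, and no test linked them.

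Histone chaperones, which carry histones to DNA, were balanced: of 26 listed 23 passed the filter, 4 rose and 4 fell, with a median of 0.12. ASF1B, which hands new H3 and H4 to the replication machinery, had a log2 fold change of -0.87 ± 0.14 (adjusted p = 0.00106), and its paralog ASF1A rose by 0.83 ± 0.16 (adjusted p = 0.00249). TONSL, which reads new H4 behind the fork, was lower (-0.86 ± 0.26, adjusted p = 0.0207). Among 12 genes of the complexes that exchange H2A.Z, 2 rose and 2 fell (median 0.17). ACTR6, a subunit of the SRCAP complex, rose by 1.82 ± 0.23 (adjusted p = 0.000222), RUVBL1, an ATPase of several such complexes, by 1.20 ± 0.13 (adjusted p = 0.000108), and EP400 had -0.68 ± 0.15 (adjusted p = 0.00538). Of 15 histone deacetylases 12 passed the filter, 2 rose and 2 fell (median 0.12). HDAC2 rose by 0.99 ± 0.16 (adjusted p = 0.000967) and HDAC4 by 0.74 ± 0.16 (adjusted p = 0.00524). HDAC11 had -1.77 ± 0.19 (adjusted p = 0.000104), with 1 OM3 array at background.

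**Figure D5:**
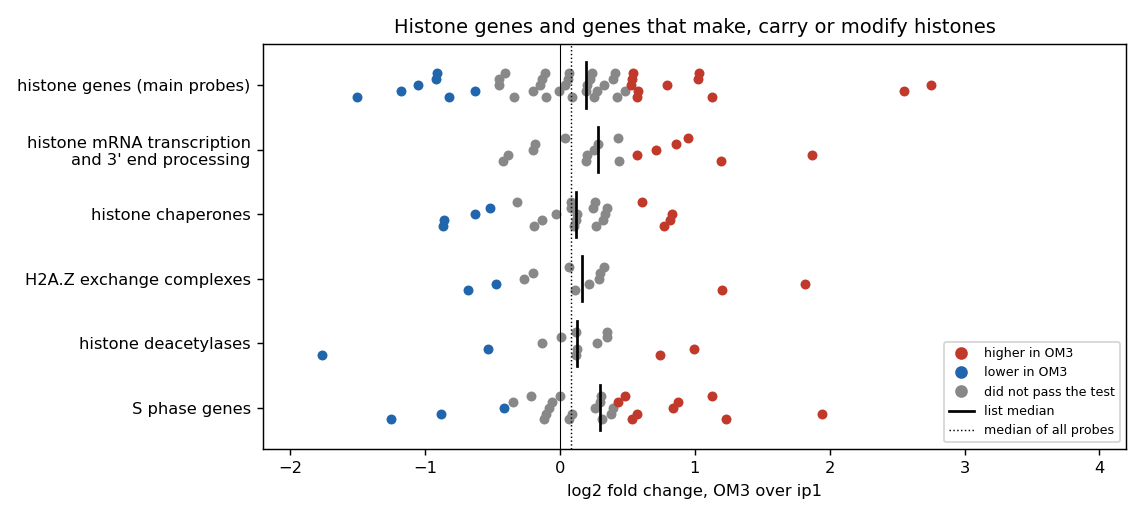
Log2 fold change of OM3 over ip1 (x axis) of each gene past the filter, for the histone genes (top) and 5 lists of genes that make, carry, exchange or deacetylate histones or act in S phase. Black bars mark list medians, from 0.12 to 0.29, beside the dotted median of all probes (0.08).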

How the data were processed

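Total RNA of the 6 samples was labelled with the TotalPrep kit and hybridised to Illumina bead arrays, per the labels' protocols. The deposited table holds linear intensity values per probe that the authors exported from BeadStudio, and the authors' value table holds log2 values whose columns share 1 distribution. The intensity columns give the group alone, so array numbers within it are names only, and 3 columns that match no sample were not used. Intensities were background-corrected (normexp, offset 16), quantile normalized and set on a log2 scale. A probe was kept if above the array's background peak (one-sided p 0.05) on at least 3 of 6 arrays. Groups were compared with limma 3.58.1 (lmFit, eBayes) in R 4.3.3, with Benjamini-Hochberg adjustment over 19002 probes and a threshold of 0.05. The fit was tested on simulated data. A fold called "at least" sets the brighter group's mean against the lowest signal above background. Depth has no meaning for arrays, whose number, 3 a group, limits precision. Probe symbols come from the platform annotation. The text names all histone genes past the test, all variants past the filter and up to 3 called genes with the largest change per list, and other genes named were chosen after their values were seen. Histone members, gene lists and marker lists were chosen with earlier results of these data known. Alternatives were other background corrections, normalizations, filters, the authors' table, a trended prior and leaving out each array.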

Additional observations from a re-analysis of the deposited data

How the results depend on the processing

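Of the 18 histone genes called, 11 passed the test in every one of the 16 other settings that gave them a value: H1-2, H1-10, H2AC18, H2BC5, H2BC6, H2BC9, H2BC12, H4C3, H4C12, H2AX and H2AJ. H2BC6 and H2BC9 had a value in 12 of these settings and entered the filtered ones through 1 group, and their log2 fold changes ran from 0.41 to 1.40 and from -1.93 to -0.64. H2AC6 and H2BC4 were lost only with no filter on dim probes (adjusted p = 0.0701 and 0.0664). With no filter 7 histone probes were higher, since 48799 probes were tested and 14.1% called, and 22 list genes were called, against 33. Leaving out 1 array at a time gave 9 to 13 higher and 5 to 9 lower histone probes and 28 to 38 called list genes. The lower count was 5 without replicate 2 and without replicate 3 of ip1. Among genes not called, signs turned for H3-3A (-0.059) and H2AC17 (-0.037) with cyclic loess, and for H3-3B (0.065) and H2AC17 (-0.022) with median centring. With single arrays left out, values ran from -0.048 to 0.10 for H3-3A, -0.22 to 0.51 for H1-1, -0.23 to 0.025 for H2AC11, -0.0068 to 0.39 for H2AC12, -0.033 to 0.19 for H2AC14, -0.060 to 0.28 for H2AC17, -0.10 to 0.14 for H3C3 and -0.41 to 0.25 for H3C4. Calls were gained in 12 comparisons, 5 of them for H2BC11 and 1 each for H2AZ1, H2BC7, H3C1, H3C7, H3C10, H4C2 and H4C11. The cause was not tested. Cyclic loess put the median of all probes at -0.01, against 0.08, and called 4461 probes higher and 5037 lower over the array, against 5354 and 4393, and 10 and 9 histone probes, against 13 and 8. No paired analysis was possible because the labels of the groups share no replicate numbers and the columns carry none.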

Other observations

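Genes of histone-like proteins outside the naming rule were also on the array, as 11 probes of which 4 passed the filter. CENPA, the H3 variant that marks centromeres, had 9.94, 10.002 and 9.92 on OM3 arrays and 11.11, 10.96 and 11.14 on ip1 arrays, with no overlap (-1.11 ± 0.13, limma adjusted p = 0.000152). Its second probe was also lower in OM3 (-1.02, adjusted p = 0.000476). The brighter probe of H3-5 (H3.5), an H3.3-like gene, had 11.43, 11.23 and 11.35 in OM3 and 12.54, 12.26 and 12.33 in ip1 (-1.04 ± 0.14, adjusted p = 0.000381). Its second probe was far dimmer, with means of 6.61 in OM3 and 6.81 in ip1, and did not pass (-0.20, adjusted p = 0.504). Whether either probe reports H3-5 alone was not checked. The probes of H2AB1, H2AB2, H2AB3, H2AP, H2BW1 and H3-4 did not pass the filter.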
